A study of Mus musculus with 10 samples.

Results

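The genes for the protein components of the cytosolic ribosome were compared between the retinas of mice given vigabatrin and those of vehicle mice. Members were the protein-coding rows whose symbol is Rpl or Rps followed by a number, together with Rpsa, Rplp0, Rplp1 and Rplp2, and the ribosomal S6 kinases were left out. The rule found 84 genes of 35275 in the count table, 51 named for the large subunit and 33 for the small one. The rule used names only and no measured value.

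The retinas came from C57BL/6 mice of 10 to 12 weeks, and gave 5 RNA-seq libraries for vigabatrin and 5 for vehicle. Vigabatrin, an antiepileptic drug that inactivates GABA transaminase, was given at 140 mg/kg/day from an osmotic pump under the skin for 11 days. The treatment labels call the other mice vehicle, while their titles call them untreated, and neither says what their pumps held. Libraries are named here by group and title number. Nothing in the labels says whether each library came from a different mouse, so p-values measure the spread between libraries. Whole retina holds many cell types, and fewer cells of a type cannot be told apart from less RNA per cell.

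The eukaryotic ribosome joins a small subunit, which binds and decodes the mRNA, to a large subunit, which forms the peptide bond. Its proteins are made in matched amounts, and many of their mRNAs begin with a tract of C and T bases (C and U in the RNA) through which growth signals such as mTOR set their translation. In the retina, photoreceptors make protein continuously to renew their outer segments. Transcript levels, which are measured here, do not show how much of an mRNA is translated.

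Of the 84 members, 63 had a RefSeq promoter on GRCm38.p6, with 75 promoters in all. The stretches below run from 60 bases before the listed start to 30 bases after it. They include Rpl14, the member that departed least from the others between libraries, and Rplp0, which departed most among members above 10 CPM. Rps6, Rps27, Rplp2 and Rps2 are printed to show the start tract or the letters TATAAA. Capitals mark an unbroken run of at least 8 C or T bases lying between 10 bases before and 15 bases after the start in Rpl14, Rps6, Rps27 and Rplp2, and the letters TATAAA in Rplp0 and Rps2.
Rpl14 (chr9:120571457-120571546, plus strand): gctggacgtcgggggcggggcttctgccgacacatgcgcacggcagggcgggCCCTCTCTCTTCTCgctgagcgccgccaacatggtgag
Rps6 (chr4:86857338-86857427, minus strand): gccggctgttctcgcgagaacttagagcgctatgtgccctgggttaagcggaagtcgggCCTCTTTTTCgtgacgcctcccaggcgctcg
Rps27 (chr3:90213619-90213708, minus strand): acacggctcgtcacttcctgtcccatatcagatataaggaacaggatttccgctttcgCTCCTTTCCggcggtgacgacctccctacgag
Rplp2 (chr7:141447591-141447680, plus strand): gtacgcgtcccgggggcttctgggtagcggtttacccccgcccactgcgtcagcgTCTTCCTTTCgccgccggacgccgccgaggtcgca
Rplp0 (chr5:115559407-115559496, plus strand): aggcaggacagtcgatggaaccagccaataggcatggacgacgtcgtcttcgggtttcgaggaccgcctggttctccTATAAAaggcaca
Rps2 (chr17:24720003-24720092, plus strand): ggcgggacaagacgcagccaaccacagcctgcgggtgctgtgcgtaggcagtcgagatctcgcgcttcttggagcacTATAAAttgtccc
The run was 14 bases long in Rpl14, 10 in Rps6, 9 in Rps27 and 10 in Rplp2. A run of at least 8 was found in 36.5% of the 63 members, against 11.0% of the 27025 genes with a promoter in the table. Both shares depend on where the start is listed and on the limit of 8 bases. A member without such a run was not shown to lack the tract. In the whole 300-base promoter, read on both strands, CCGGAAG (the core letters of an ETS-family site) stood in 41.3% of members against 9.9% of all genes. AAGATGG (YY1) stood in 15.9% of members against 7.3%, GGGCGG (SP1) in 61.9% against 38.2%, and TATAAA in 11.1% against 15.7%. No motif contains another. In Rplp0 and Rps2 the letters TATAAA lie after the listed start. A match describes the letters in a window and does not show a binding site.

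Most members were well expressed in these retinas, and 72 of the 82 that passed the filter on low counts had a mean between 50 and 400 CPM (counts scaled to a common library total). Together the members took 1.05 ± 0.063% of all counts in vigabatrin libraries and 1.07 ± 0.061% in vehicle libraries (SD, n = 5 each). Divided by the deposited gene length, the median tested member had 133 CPM per kb, with 117 for the large subunit and 151 for the small one. The highest was Rplp1, a protein of the stalk that draws elongation factors to the ribosome, at 509 CPM per kb in vigabatrin libraries and 521 in vehicle libraries. Rps27 had 384 CPM per kb in vigabatrin libraries and 410 in vehicle libraries. Rps14, Rps15 and Rpl8 followed, at 314, 305 and 296 CPM per kb in vigabatrin libraries and 320, 309 and 301 in vehicle libraries. The deposited length of a gene with several transcripts can exceed that of its main mRNA, so these levels are rough, and Rps15a, listed at 5130 bases, had 23.4 CPM per kb in vigabatrin libraries and 24.3 in vehicle libraries.

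**Figure D1:**
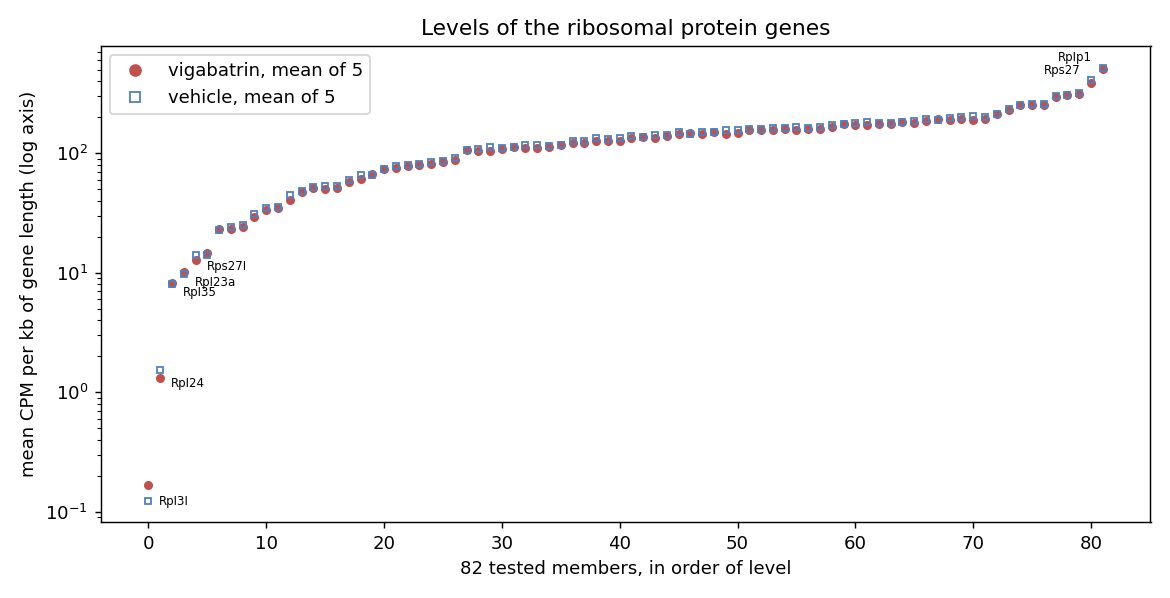
Mean CPM per kb of gene length (log axis) of the 82 tested members in order of level, as filled red circles for the 5 vigabatrin libraries and open blue squares for the 5 vehicle libraries. The pairs of symbols lie close together from Rplp1 at the top (509 and 521) down to the 5 lowest members, named on the plot.

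The 5 lowest tested members per kb were Rpl3l, Rpl24, Rpl35, Rpl23a and Rps27l. Rpl3l, a paralogue of Rpl3 known from heart and skeletal muscle, had 0.167 CPM per kb in vigabatrin libraries and 0.124 in vehicle libraries, from 3 to 15 counts in a library. Rpl24, Rpl35 and Rpl23a encode proteins of every ribosome, yet averaged 0.885, 7.79 and 5.91 CPM in vigabatrin libraries and 1.04, 7.58 and 5.70 CPM in vehicle libraries. In the GENCODE M21 annotation, these are the members with the largest shares of exonic bases lying in other genes as well, at 47.0% in Rpl24, 66.2% in Rpl35 and 62.3% in Rpl23a, followed by Rpl13a at 35.4%. Rpl13a had the highest CPM of all members, 371 ± 36.9 in vigabatrin libraries and 383 ± 20.99 in vehicle libraries (SD, n = 5 each). The bases shared by Rpl13a and Rpl24 lie in genes on the same strand. Those of Rpl35 lie in genes on the opposite strand, and those of Rpl23a in genes on both strands. The strand setting of the counting is not given in the sources used here, and whether reads in shared bases were dropped was not tested. Fau, the ubiquitin-like fusion of the small subunit, whose symbol the rule does not match, shares no exonic bases and averaged 136 CPM in vigabatrin libraries and 138 CPM in vehicle libraries. For Rpl24, Rpl35 and Rpl23a the counts may not measure the mRNA.

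No member passed the test. Of the 82 tested members, 0 had an adjusted p under 0.05 in either direction (edgeR's quasi-likelihood test, Benjamini-Hochberg adjustment over 17435 genes), and the smallest adjusted p was 0.640. Over all tested genes 1 was called, or 0.00574%. That gene was St8sia2, a polysialyltransferase, at 29.4 CPM in vigabatrin libraries and 23.3 CPM in vehicle libraries. DESeq2 and limma-voom also called 0 members. At an unadjusted p under 0.05, 1 member (Rpl10a) was found, or 1.22%, against 7.36% of all tested genes. The vigabatrin and vehicle libraries did not overlap in 0 of 82 members, against 1.48% of all tested genes.

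The fold changes were small, and most had the same sign. The mean was lower in vigabatrin libraries for 69 of 82 members (84.1%), against 50.6% of all tested genes, with 40 of 49 in the large subunit and 29 of 33 in the small one. The median log2 fold change, vigabatrin over vehicle, was -0.04 for members and -0.0013 for all tested genes. The quartiles of the members were -0.06 and -0.02, and 77 of 82 lay within 0.1 of 0. Members vary together between libraries, so their shared sign is not 69 separate observations. The library medians below set its size against the spread.

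**Figure D2:**
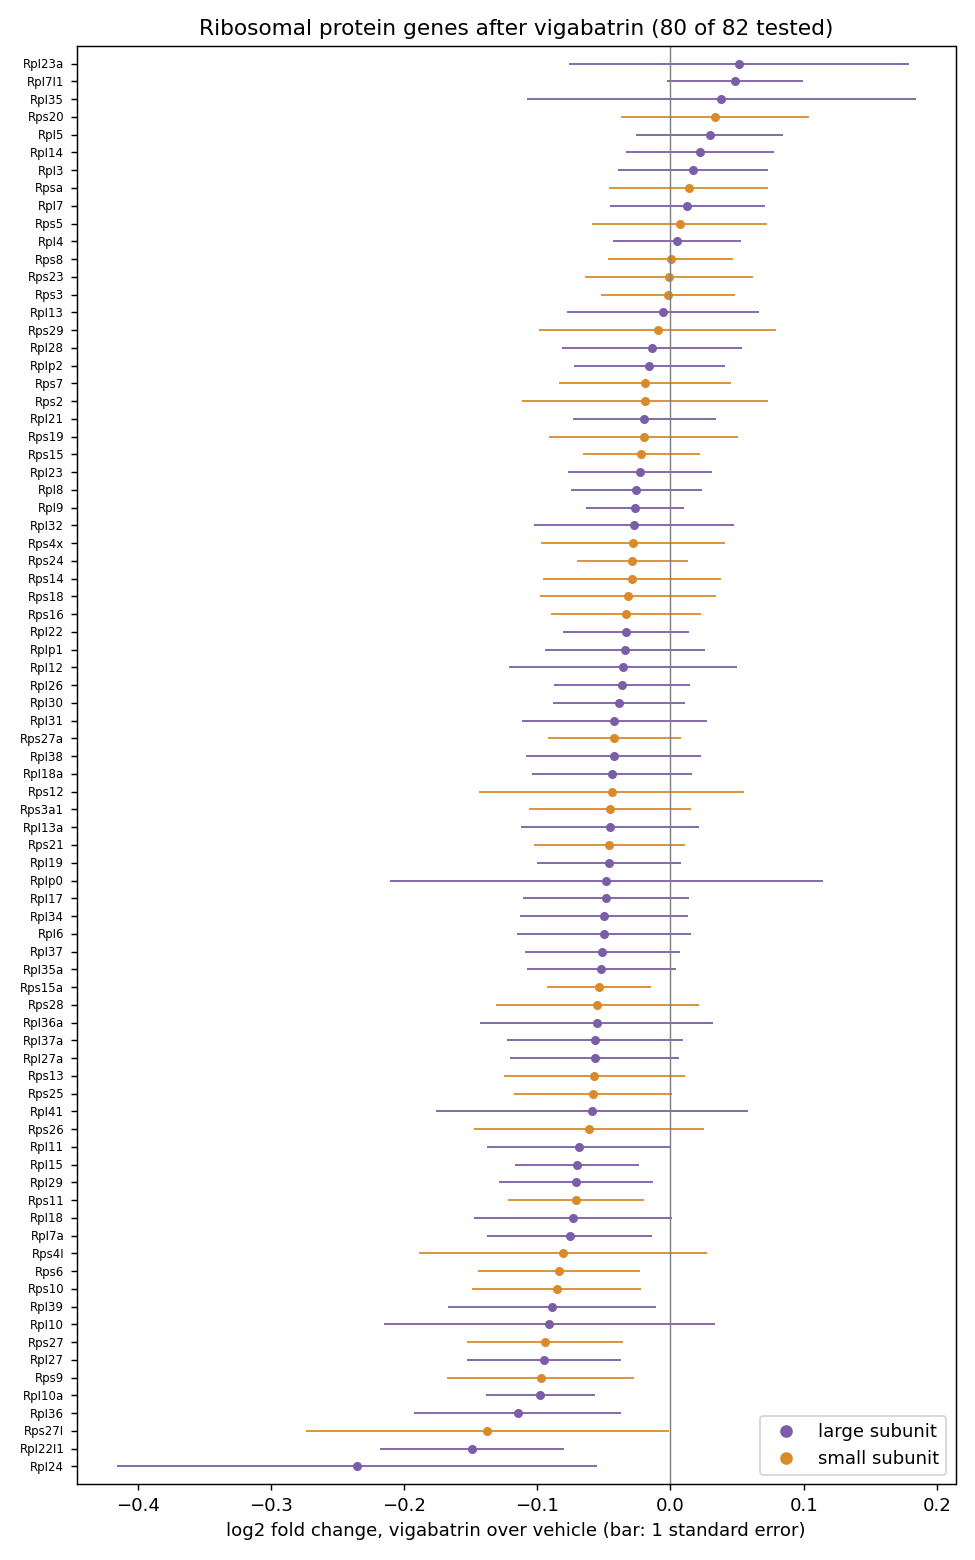
Log2 fold change, vigabatrin over vehicle, of 80 tested members in order, with bars of 1 standard error, in purple for the large subunit and orange for the small one. Of the 82, Rpl3l (0.41, SE 0.45) is left out for scale and 1 other is not shown, and the points run from Rpl24 (-0.24) to Rpl23a (0.05), most of them just left of 0.

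In each library, the median over the 82 members of log2 CPM, less each gene's mean over the 10 libraries, was taken. It was 0.12, 0.03, -0.08, -0.13 and -0.03 in vigabatrin 2344, 2347, 2349, 2428 and 2429. It was -0.04, 0.15, -0.03, 0.09 and -0.07 in vehicle 832, 835, 1580, 1582 and 2345. The groups overlapped widely, with the highest value in a vehicle library and the second highest in a vigabatrin library. The means were -0.02 ± 0.10 in vigabatrin libraries and 0.02 ± 0.09 in vehicle libraries (SD, n = 5 each), so the difference of -0.04 was smaller than the spread within either group.

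**Figure D3:**
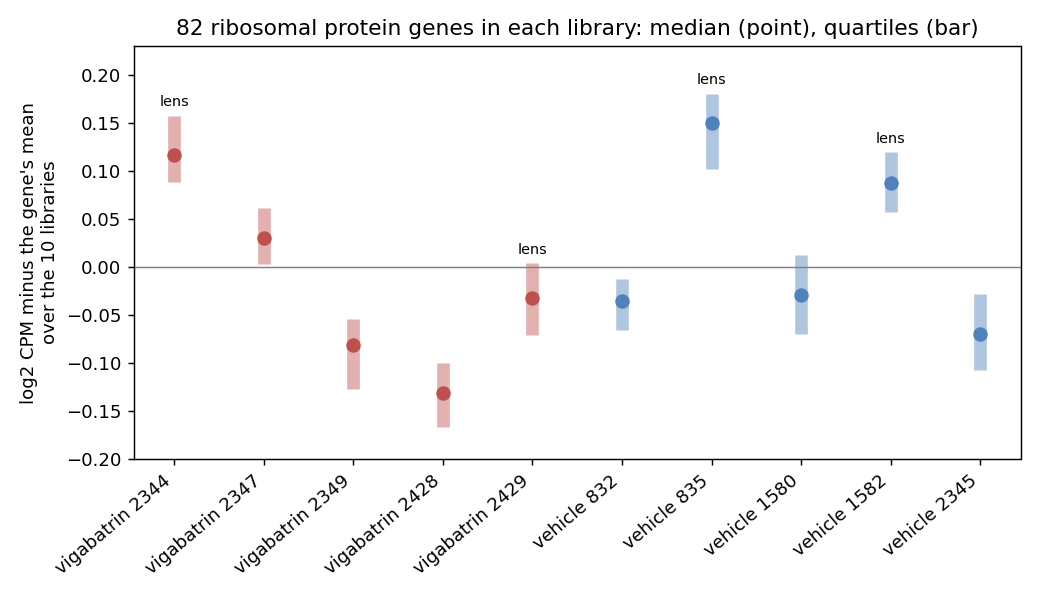
Level of the 82 tested members in each library, as log2 CPM less the gene's mean over the 10 libraries, with points for medians, bars from the lower to the upper quartile of members and the word lens over libraries with more than 1% lens transcripts. Vigabatrin 2344 (0.12), vehicle 835 (0.15) and vehicle 1582 (0.09) stand above the others in both groups.

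Members moved as a block from library to library. In vigabatrin 2344, 77 of 82 were above their own mean over the 10 libraries, as were 79 in vehicle 835 and 76 in vehicle 1582, while in vigabatrin 2428 the number was 3. The median within-group SD of a member was 0.11 on the log2 scale, and 0.05 once each library's median was removed. The member closest to the shared course was Rpl14, a protein of the large subunit, with an SD of 0.015 after that step. Rplp1 followed at 0.021 and Rpl7 at 0.022. Genes of like level, 1236 with a mean CPM between the members' quartiles, had a median SD of 0.08 before it, so the members as counted varied more between libraries than these.

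The libraries also differed in transcripts of neighbouring tissue. Lens markers (9 of 10 detected, among them the crystallins, with Lim2 at 0 in every library) summed to 1.79% and 1.60% of counts in vigabatrin 2344 and 2429 and to 1.76% and 1.18% in vehicle 835 and 1582, and to at most 0.0965% in each of the other 6 libraries. The order of the member medians followed the lens share only in part, since lens-rich vigabatrin 2429 had a member median of -0.03 and vigabatrin 2347, the library with the lowest lens share, had 0.03. The summed level of lens markers was 2.99 to 18232 CPM over vigabatrin libraries and 31.5 to 17855 CPM over vehicle libraries. Pigment epithelium markers (9 of 9 detected) summed to between 351 and 697 CPM in vigabatrin libraries and between 350 and 1319 CPM in vehicle libraries. The 3 libraries with the highest member medians were also the 3 highest for pigment epithelium markers, with 697 CPM in vigabatrin 2344, 1319 CPM in vehicle 835 and 604 CPM in vehicle 1582. Within this list the melanosome gene Pmel had 223 CPM in vigabatrin 2344, 402 CPM in vehicle 835 and 157 CPM in vehicle 1582, while Rpe65, which defines the pigment epithelium, had 0.404 CPM in vigabatrin 2344, 33.6 CPM in vehicle 835 and 1.45 CPM in vehicle 1582. Rlbp1 in the same list is also made by Müller glia. Rod markers, led by rhodopsin, summed to between 49511 and 54361 CPM in vigabatrin libraries and between 50593 and 55303 CPM in vehicle libraries. The part of lens or pigment epithelium in the members' levels was not tested.

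For 14 of 82 members (17.1%) the 4 lens-rich libraries all lay above the other 6, against 5.42% of all tested genes. All 4 lay below the others in 0 members, against 1.69% of tested genes. The 14 were Rpl6, Rpl10, Rpl12, Rpl13, Rplp0, Rps2, Rps7, Rps12, Rps13, Rps14, Rps19, Rps26, Rps27l and Rpsa. Because members moved as a block from library to library, these are not 14 separate observations.

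Rplp0, the protein that anchors the stalk to the large subunit, departed from the others the most among members above 10 CPM. It had 235, 163, 157, 147 and 205 CPM in vigabatrin 2344, 2347, 2349, 2428 and 2429, against 156, 249, 165, 211 and 156 CPM in vehicle 832, 835, 1580, 1582 and 2345. The 4 lens-rich libraries held its 4 highest values in both groups. The fitted log2 fold change was -0.05 (SE 0.16, adjusted p = 0.968 by edgeR's quasi-likelihood test). Without the lens-rich libraries it was -0.03 (SE 0.05), and with lens and pigment epithelium levels as terms it was 0.05 (SE 0.06).

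Its partners in the stalk varied less. Rplp1 averaged 252 ± 16.5 CPM in vigabatrin libraries and 258 ± 19.4 CPM in vehicle libraries, and Rplp2 averaged 109 ± 5.35 CPM in vigabatrin libraries and 111 ± 8.93 CPM in vehicle libraries (SD, n = 5 each). Per kb, Rplp0 stood at 26.1 ± 3.9% of Rplp1 in vigabatrin libraries and 26.3 ± 3.8% in vehicle libraries, and at 28.8 to 31.6% in the lens-rich libraries against 22.9 to 24.9% in the others. Rplp2 stood at 22.4 ± 0.73% of Rplp1 in vigabatrin libraries and 22.1 ± 0.87% in vehicle libraries. A pseudogene row of Rplp2 held 32.0% as many counts as Rplp2 itself, so the level of Rplp2 is uncertain.

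The same order of libraries was seen in members with other places on the ribosome. Rpl10, which joins the large subunit late in its assembly, had 121, 101, 94.5, 88.9 and 109 CPM in vigabatrin 2344, 2347, 2349, 2428 and 2429, against 95.2, 140, 98.1, 123 and 91.7 CPM in vehicle 832, 835, 1580, 1582 and 2345. Rps2, a small-subunit protein near the mRNA entry, had 266, 224, 209, 211 and 247 CPM in the vigabatrin libraries in that order, against 214, 281, 214, 249 and 215 CPM in the vehicle libraries. In both genes the groups overlapped and the lens-rich libraries were highest. Rpl12 of the stalk base ranged from 88.8 to 117 CPM in vigabatrin libraries and from 93.2 to 116 CPM in vehicle libraries, and Rps12 from 80.2 to 106 CPM in vigabatrin libraries and from 83.4 to 112 CPM in vehicle libraries, again with the lens-rich libraries highest.

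**Figure D4:**
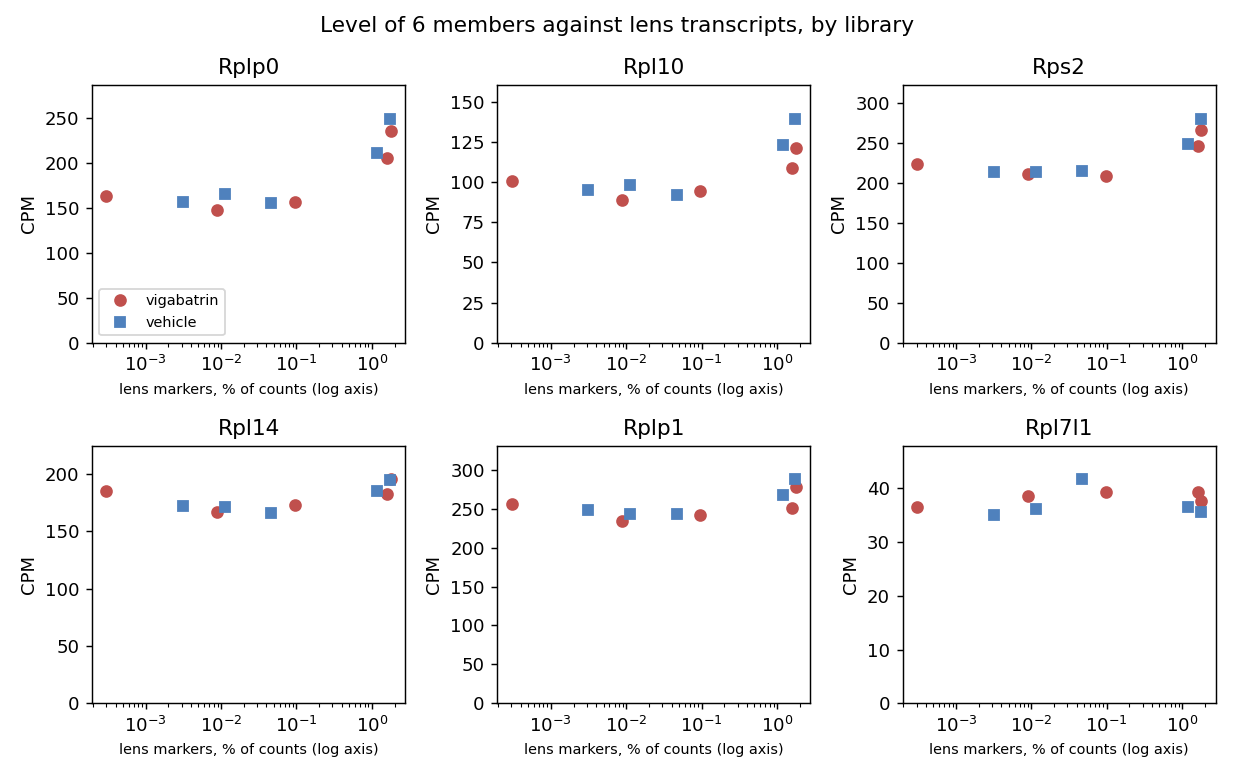
CPM of 6 members against the share of counts from lens markers (log axis), with red circles for the 5 vigabatrin libraries and blue squares for the 5 vehicle libraries. Rplp0, Rpl10 and Rps2 are highest in the 4 libraries above 1% lens, while Rpl14 and Rplp1 differ less and the highest Rpl7l1 value is in another library.

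Other members varied without that order. Rpl41, the shortest ribosomal protein, had 124, 135, 86.8, 100 and 130 CPM in vigabatrin 2344, 2347, 2349, 2428 and 2429, against 118, 126, 122, 132 and 102 CPM in vehicle 832, 835, 1580, 1582 and 2345. Its lowest and highest values were both in vigabatrin libraries. Rps29 ranged from 96.0 to 135 CPM in vigabatrin libraries and from 113 to 125 CPM in vehicle libraries, and Rps28 from 52.6 to 69.4 CPM in vigabatrin libraries and from 58.8 to 66.2 CPM in vehicle libraries. For both, the vigabatrin libraries spread around the vehicle range.

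Among members with lower means in vigabatrin libraries, Rpl10a of the large subunit had the smallest p. It had 208, 206, 206, 200 and 201 CPM in vigabatrin 2344, 2347, 2349, 2428 and 2429, against 215, 237, 223, 210 and 207 CPM in vehicle 832, 835, 1580, 1582 and 2345. Only the lowest vehicle library fell among the vigabatrin libraries. The log2 fold change was -0.10 (SE 0.04, adjusted p = 0.640 by edgeR's test). Rpl22l1 had 18.0, 21.8, 19.9, 20.5 and 18.1 CPM in the vigabatrin libraries in that order, against 21.04, 23.9, 20.7, 22.8 and 20.5 CPM in the vehicle libraries. Its log2 fold change was -0.15 (SE 0.07, adjusted p = 0.682 by edgeR's test), and the groups overlapped.

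The next by p in this direction included Rpl27, Rps27 and Rpl15. Rpl27 had 114, 110, 102, 98.2 and 109 CPM in the vigabatrin libraries, against 109, 122, 115, 122 and 103 CPM in the vehicle libraries. Rps27, a small-subunit protein with a zinc finger, had 100, 106, 97.1, 91.7 and 94.9 CPM in the vigabatrin libraries, against 102, 114, 98.1, 114 and 96.2 CPM in the vehicle libraries. In both, vehicle 835 and 1582 were the highest libraries, with fold changes of -0.09 on the log2 scale. Rpl15 had 104, 99.5, 94.0, 91.6 and 95.4 CPM in the vigabatrin libraries, against 97.3, 109, 98.4, 106 and 98.5 CPM in the vehicle libraries. The log2 fold change of Rpl15 was -0.07 (SE 0.05), and the groups overlapped.

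Of the 13 members with higher means in vigabatrin libraries, Rpl7l1 had the smallest p. Rpl7l1, a paralogue of Rpl7 known for work in ribosome assembly, had 37.6, 36.5, 39.3, 38.5 and 39.3 CPM in vigabatrin 2344, 2347, 2349, 2428 and 2429, against 35.1, 35.6, 36.1, 36.6 and 41.6 CPM in vehicle 832, 835, 1580, 1582 and 2345. All vigabatrin libraries but 1 lay above 4 of the vehicle libraries, and the highest value was vehicle 2345. The log2 fold change was 0.05 (SE 0.05, adjusted p = 0.889 by edgeR's test). Rpl3l followed at 0.41 (SE 0.45), from 54 counts in all vigabatrin libraries and 39 in all vehicle libraries.

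Rpl5, Rps20, Rpl23a and Rpl14 made up the rest of this group. Rpl5, which binds the 5S rRNA, had 151, 140, 131, 129 and 136 CPM in the vigabatrin libraries, against 128, 147, 125, 140 and 133 CPM in the vehicle libraries. Rps20 had 95.2, 91.2, 79.4, 80.1 and 88.4 CPM in the vigabatrin libraries, against 80.8, 95.6, 77.8, 90.7 and 79.5 CPM in the vehicle libraries. In both the groups overlapped along most of their range. Rpl23a had 7.03, 7.23, 5.52, 5.12 and 4.65 CPM in the vigabatrin libraries, against 5.61, 5.96, 5.92, 5.87 and 5.13 CPM in the vehicle libraries. Rpl14 had 196, 185, 174, 167 and 183 CPM in the vigabatrin libraries, against 172, 195, 171, 185 and 166 CPM in the vehicle libraries. The vigabatrin libraries held both the highest and the lowest Rpl23a values, and Rpl14 followed the library medians in both groups.

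Members with roles beyond the ribosome gave the same picture. Rpl11, which with Rpl5 and the 5S rRNA can bind Mdm2 and so raise p53, averaged 144 ± 13.8 CPM in vigabatrin libraries and 151 ± 10.7 CPM in vehicle libraries. Rps6, the substrate of the S6 kinases, averaged 141 ± 12.8 CPM in vigabatrin libraries and 150 ± 7.39 CPM in vehicle libraries. Rps3, at the mRNA entry, averaged 235 ± 15.7 CPM in vigabatrin libraries and 235 ± 9.89 CPM in vehicle libraries. Rpsa, also called the laminin receptor, averaged 275 ± 19.0 CPM in vigabatrin libraries and 272 ± 19.1 CPM in vehicle libraries. Rps27a, made as a fusion with ubiquitin, averaged 129 ± 6.80 CPM in vigabatrin libraries and 133 ± 7.76 CPM in vehicle libraries (SD, n = 5 each). The log2 fold changes of these 5 genes lay between -0.08 and 0.01, and none passed the test.

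Paralogues were compared with their closest relatives per kb. Their sequences were not compared here, and any stretches alike in both genes would make the split of reads uncertain. Rpl22l1 stood at 85.1 ± 8.2% of Rpl22, an RNA-binding protein of the large subunit, in vigabatrin libraries and at 92.0 ± 3.0% in vehicle libraries. The share of Rpl22l1 per kb ranged from 72.7 to 92.6% in vigabatrin libraries and from 87.7 to 94.5% in vehicle libraries, so the groups overlapped. It depends on the deposited lengths, 489 bases for Rpl22l1 and 2051 for Rpl22. In CPM, Rpl22l1 averaged 19.7 in vigabatrin libraries and 21.8 in vehicle libraries, against 97.2 and 99.5 for Rpl22. Rpl36al, outside the rule by its symbol, stood at 32.0 ± 1.8% of Rpl36a in vigabatrin libraries and 34.3 ± 2.1% in vehicle libraries. Rps4l stood at 18.8 ± 2.4% of the X-linked Rps4x in vigabatrin libraries and 19.6 ± 3.2% in vehicle libraries. Rpl7l1 stood at 10.8 ± 1.0% of Rpl7 in vigabatrin libraries and 10.5 ± 1.1% in vehicle libraries. Rps27l, a p53 target in human cells, stood at 3.32 ± 0.48% of Rps27 in vigabatrin libraries and 3.41 ± 0.31% in vehicle libraries. Rps27rt, outside the rule, stood at 0.667 ± 0.18% of Rps27 in vigabatrin libraries and 0.516 ± 0.075% in vehicle libraries. Rpl3l stood at 0.0907 ± 0.033% of Rpl3 in vigabatrin libraries and 0.0673 ± 0.042% in vehicle libraries (SD, n = 5 each). In each of these 7 pairs the groups overlapped.

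The filter on low counts removed 2 members, both known from testis. Rpl10l had 0 counts in every library, which allows up to 0.0555 to 0.0832 CPM at a limit of 3 counts. Rpl39l had 0 to 6 counts in a library, with 8 in all vigabatrin libraries and 1 in all vehicle libraries, while its relative Rpl39 averaged 37.5 ± 3.06 CPM in vigabatrin libraries and 39.9 ± 4.16 CPM in vehicle libraries (SD, n = 5 each). Such intervals and limits cover counting error only. Pseudogene rows named for the members, 245 in all, held 0.795 counts for every 100 counts of members.

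Genes that act with the ribosomal proteins were examined as 5 lists, with 0 members called in each list. Of 21 translation factors tested, 8 had higher and 13 lower means in vigabatrin libraries, with a median log2 fold change of -0.03 beside -0.0013 for all tested genes. Naca, of the complex that binds new peptide chains at the ribosome, had the smallest p of them, at -0.09 (SE 0.05), followed by the initiation factors Eif3e at -0.06 (SE 0.04) and Eif4a2 at -0.05 (SE 0.04). Of 52 ribosome biogenesis genes, 12 had higher and 40 lower means, with a median of -0.04. Over all tested genes, 50.6% had lower means. Whether the biogenesis genes vary together between libraries was not examined, so these are not taken as 40 separate observations. Wdr75, Nhp2 and Rrs1 lay at -0.13 (SE 0.04), -0.17 (SE 0.07) and -0.16 (SE 0.07), with adjusted p of 0.570, 0.631 and 0.656 by edgeR's test.

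RNA polymerase I transcribes the ribosomal RNA genes. Of its 15 subunits and factors, 8 had higher and 7 lower means, with a median of 0.02. Its subunit Polr1d lay at -0.12 (SE 0.06), the initiation factor gene Taf1d at -0.14 (SE 0.08) and the termination factor gene Ttf1 at 0.09 (SE 0.07). Of 15 tested genes of the p53 route, Trp53 itself and Mdm4 among them, 7 had higher and 8 lower means, with a median of -0.003. Rrm2b, a ribonucleotide reductase subunit, averaged 33.8 ± 1.94 CPM in vigabatrin libraries and 30.5 ± 0.935 CPM in vehicle libraries, and its groups did not overlap (adjusted p = 0.544 by edgeR's test). Cdkn1a, a cell cycle inhibitor, averaged 2.59 ± 0.297 CPM in vigabatrin libraries and 12.9 ± 19.9 CPM in vehicle libraries, where the SD exceeded the mean. Bax, which promotes cell death, averaged 24.7 ± 1.07 CPM in vigabatrin libraries and 28.0 ± 2.61 CPM in vehicle libraries (adjusted p = 0.6005 by edgeR's test). The last list held 24 symbols of translation regulators and of transcription factors such as Myc and Yy1, in 25 rows because Larp1b has 2. Of these rows 15 had higher and 10 lower means, with a median of 0.008. The smallest p were those of the translation inhibitor Eif4ebp2 at 0.12 (SE 0.07), the ETS-family factor Gabpa at 0.10 (SE 0.06) and the kinase Rps6ka2 at -0.06 (SE 0.04). Mtor averaged 158 ± 17.1 CPM in vigabatrin libraries and 156 ± 3.47 CPM in vehicle libraries (SD, n = 5 each).

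The lower median of the members depended on the libraries. Without vigabatrin 2344 it was -0.077 and without vehicle 835 it was -0.010, and these are the libraries with the highest member median in each group. It was -0.010 without the lens-rich libraries, 0.0006 with lens and pigment epithelium levels as terms, and 0.05 with a term for the range of the title numbers, where 18 of 82 members had lower means. The title numbers of the vehicle mice are mostly lower than those of the vigabatrin mice, so that term overlaps with the treatment. Only vehicle 2345 shares the range of the vigabatrin libraries, so with that term the treatment estimate rests on vehicle 2345 alone on the vehicle side. The number of members called was 0 in every setting run.

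**Figure D5:**
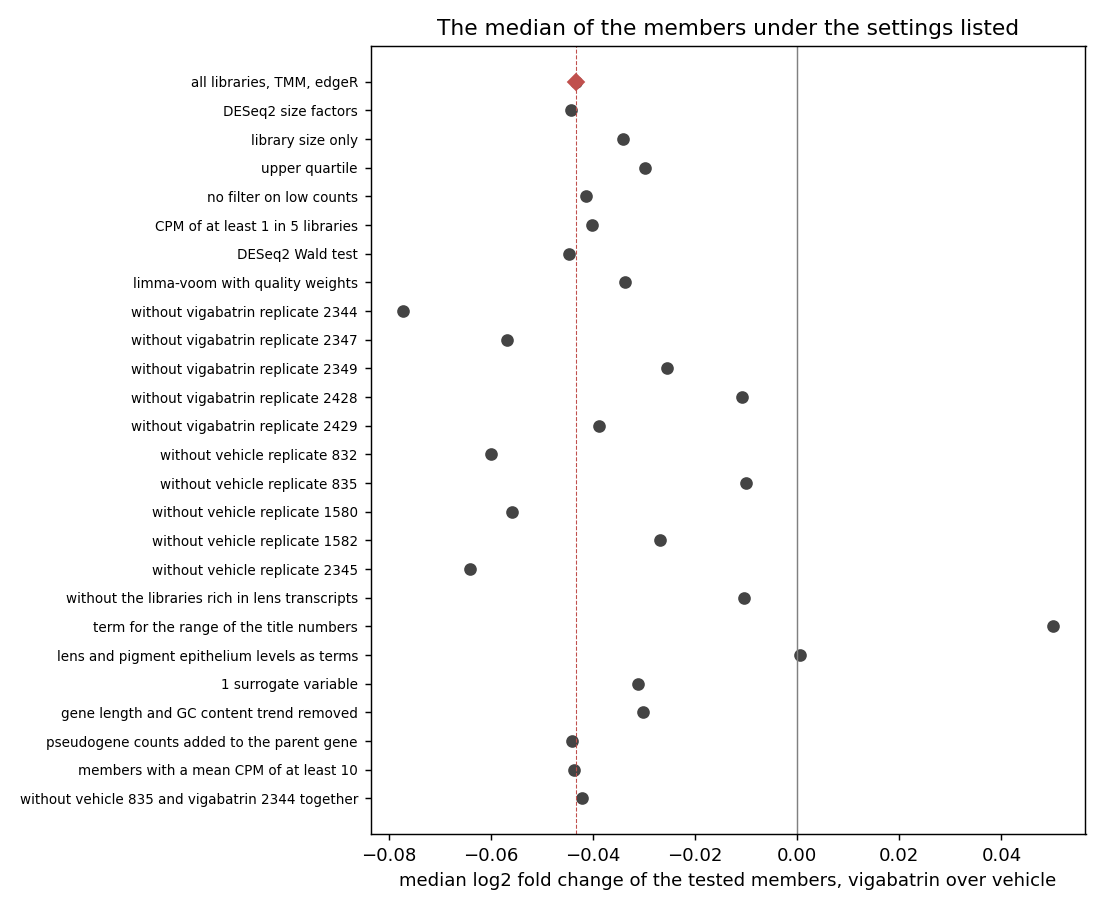
Median log2 fold change of the tested members, vigabatrin over vehicle, under the settings listed (rows), with the red diamond for all libraries with TMM scaling and edgeR (-0.04). The points run from -0.077 without vigabatrin 2344 to 0.05 with a term for the range of the title numbers.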

How the data were processed

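The authors deposited whole-number read counts per gene for 10 mouse retina libraries. Per the submitters' processing notes, HTSeq 0.6.1, the build mm10, edgeR 3.16.5 and DESeq2 were used. Not given in the sources used here are the aligner, the annotation release and the counting strand. The table also gives gene lengths, and 1 column that matches no sample entered no step. Libraries held 36056135 to 54052502 counts.

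All 35275 genes entered filterByExpr, and the 17435 left were scaled by TMM and tested between groups with edgeR 4.0.16 (glmQLFit and glmQLFTest, R 4.3.3) at a Benjamini-Hochberg adjusted p under 0.05. Standard errors were taken as the size of the log2 fold change over the square root of F. CPM uses TMM library sizes, and centred log2 CPM a prior count of 2. The test was tried on simulated counts. Where all members were lowered by a set amount, the first draw missed its limit for the recovered median. Further draws were then added, and the mean of all draws, the first included, was checked instead. Alternatives covered scaling, filters, DESeq2 1.42.0, limma-voom 3.58.1, sva 3.50.0, a length and GC trend (loess span 0.3), tissue terms and leaving out libraries.

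The members and lists were chosen with earlier results of these data known. Genes named were the 6 of smallest p per direction, the 5 highest and 5 lowest per kb, stalk and extra-ribosomal members, paralogues, filtered members, Fau, and up to 3 of smallest p per further list. Some genes that this rule selects are not reported here. Rps2, Rpl12, Rps12, Rpl13a, Rpl41, Rps28, Rps29 and Mtor, the promoter motifs and the 8-base run in its window, and the count of lens-rich libraries lying apart, were chosen after values or sequences were seen. Exon overlap used GENCODE M21, and promoters are RefSeq's on GRCm38.p6. The check of libraries within a group found none repeated.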

Additional observations from a re-analysis of the deposited data

Results flagged for a closer look

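Among 96 groups of 5 libraries examined for 1 library lying far from the rest, 2 were found, where chance gives about 1 in 20, or 4.8. Rpl24 had 1.30 CPM in vigabatrin 2428, while the other vigabatrin libraries had 0.770 to 0.797 CPM. Rpl7l1 had 41.6 CPM in vehicle 2345, while the other vehicle libraries had 35.1 to 36.6 CPM.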

How the results depend on the processing

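The number of members called was 0 under every setting, and the median log2 fold change of members was negative under 24 alternatives and positive under 2, the title-number term and the lens and pigment epithelium terms, of 27 alternatives. A threshold of 0.1 on the adjusted p leaves the median as it is. With a term for the range of the title numbers the large-subunit median was 0.0711, and the log2 fold change of Rpl39 was 0.12, reversed. On the vehicle side that fit rests on vehicle 2345 alone, which had the lowest Rpl39 of the vehicle libraries, 34.4 CPM. Genes called over the whole table numbered 0 higher with library size scaling, with no filter, with the length and GC trend removed, without the lens-rich libraries, with the title-number term, and without vigabatrin 2344 and vehicle 835 together. They numbered 37 higher and 50 lower by DESeq2, 3 higher by limma-voom, 2 higher with lens and pigment epithelium terms, and 4 higher and 1 lower with 1 surrogate variable. Leaving out 1 library gave 0 to 13 higher and 0 to 26 lower, with both maxima without vehicle 2345. Of 1588 values of the 59 named genes under the alternatives, 124 had the other sign. A value that no test called was counted as reversed only where it lay beyond 1 standard error in both fits, and 1 did (Rpl39). That demand was added after a first rule, which counted changes of sign without it, had been tried. The alternatives of members above 10 CPM and of leaving out vigabatrin 2344 and vehicle 835 were chosen after seeing the data. No paired analysis was possible because the title numbers are not shared between the groups. Depth limits Rpl3l, Rpl24 and Rpl39l.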
